A study of Mus musculus with 15 samples.

Results

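The 41 genes described here encode heat shock proteins, their co-chaperones, the chaperones and folding factors of the endoplasmic reticulum (ER), and the regulators that switch these genes on. They were selected by gene symbol from a table of CPM, the read abundance of each gene scaled to a common total per sample, and all 41 were found among its 35880 symbols. By role, they comprised 5 transcription factors and sensors, 16 cytosolic chaperones and co-chaperones, 3 mitochondrial chaperones and 17 ER chaperones and folding factors.

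Chaperones bind unfolded proteins and help them reach or regain their shape. In the cytosol, HSF1 is the main activator of the heat shock genes, and HSP70 proteins work there with J-domain co-chaperones (the *Dnaj* genes), nucleotide exchange factors and HSP90. In the ER, the sensors IRE1 (gene *Ern1*) and ATF6 respond to unfolded proteins in the unfolded protein response (UPR), and the transcription factor XBP1, whose mRNA is spliced by IRE1, raises ER chaperones and degradation factors. KEAP1 marks the transcription factor NRF2 for degradation, so that its loss leaves NRF2 active.

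RNA was sequenced from Lewis lung carcinoma (LL2) cells, a mouse lung tumor line, in 5 lines with 3 biologic replicates each (15 samples). These were the parental line (LL2 WT), 3 lines with CRISPR knockout of *Keap1* (*KEAP1* KO #1, #2 and #3) and 1 line with knockout of *Nfe2l2*, the gene of NRF2 (*NRF2* KO). All lines were cultured in DMEM with 10% fetal bovine serum without a further treatment. The *KEAP1* KO lines are also called clones #1, #2 and #3 below. Each knockout line grew from a single sorted cell, whereas LL2 WT was not cloned, so an effect of the knockout and a trait of the founding cell cannot be told apart within a line. The lines were compared to see how chaperone transcripts differ between NRF2-active, NRF2-inactive and parental cells.

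The knocked-out genes were checked first. *Keap1* averaged 23.0 ± 1.03 CPM (SD, n = 3) in LL2 WT, 11.8 ± 0.889 CPM in clone #1, 5.53 ± 1.57 CPM in clone #2, 5.58 ± 1.60 CPM in clone #3 and 22.7 ± 1.78 CPM in the *NRF2* KO line. The NRF2 target *Nqo1* averaged 30.3 CPM in parental LL2 WT, 476, 276 and 488 CPM in the *KEAP1* KO clones in order, and 9.82 CPM in the *NRF2* KO line. *Nfe2l2* transcript was still present in *NRF2* KO, at 119 CPM on average against 186 CPM in parental LL2 WT. *Nfe2l2* averaged 96.4, 123 and 116 CPM in the *KEAP1* KO clones in order, so this lower level was not particular to the *NRF2* KO line. The keratins *Krt8* and *Krt18* lay above 65 CPM and *Vim* above 1534 CPM in every sample, whereas *Epcam*, *Cdh1*, *Nkx2-1*, *Scgb1a1*, *Ptprc*, *Cd3e* and *Kdr* stayed under 0.2 CPM. Of the lung epithelial markers, *Nkx2-1* and *Scgb1a1* were thus at or near 0. *Sftpc* averaged 0.159 CPM in parental LL2 WT and less in every other line, and *Sftpb* averaged from 0.0381 CPM in parental LL2 WT to 0.682 CPM in clone #3. The endothelial marker *Pecam1* averaged from 3.08 CPM in parental LL2 WT to 5.54 CPM in the *NRF2* KO line, and *Cdh5* from 0.0227 CPM in parental LL2 WT to 1.25 CPM in clone #3. Other markers moved with the lines. *Vim* went from 4289 CPM in parental LL2 WT to between 1681 and 1853 CPM in the *KEAP1* KO clones. *Fn1* went from 236 CPM in parental LL2 WT to 92.1, 19.9 and 22.9 CPM in the clones in order. The macrophage marker *Cd68* went from 2.85 CPM to between 6.49 and 22.0 CPM. The part of these markers in the results below was not tested.

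A pair of promoter elements is shown because they are the textbook elements of the cytosolic and the ER arm of these genes. A heat shock element (here GAA, 2 bases, TTC, 2 bases, GAA, on either strand) occurred in the RefSeq promoters (GRCm38.p6, 250 bases before to 50 after the start site) of 3 of the 31 members with a promoter sequence, *Hsph1*, *Hspd1* and *Hspe1*, and in 0.662% of 27025 genes. *Hspd1* and *Hspe1*, which start on opposite strands of chromosome 1, share 1 such site, printed on the strand of *Hspe1* with the element on both strands in capitals.
*Hspe1* and *Hspd1* (chr1:55088054-55088081, plus strand): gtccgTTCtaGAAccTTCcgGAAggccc
The ER stress response element (CCAAT, 9 bases, CCACG, on either strand), bound by NF-Y and ATF6, occurred in 7 of the 31 members and in 0.137% of genes. The capitals below mark its fixed letters.
*Hspa5* (chr2:34772020-34772048, plus strand): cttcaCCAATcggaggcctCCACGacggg
*Hsp90b1*, farther site (chr10:86705633-86705661, minus strand): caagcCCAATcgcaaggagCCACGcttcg
*Hsp90b1*, nearer site (chr10:86705528-86705556, plus strand): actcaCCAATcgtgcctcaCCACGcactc
*Dnajc3* (chr14:118937822-118937850, plus strand): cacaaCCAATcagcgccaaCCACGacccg
*Calr* (chr8:84847070-84847098, plus strand): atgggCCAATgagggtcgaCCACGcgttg
*Canx* (chr11:50325795-50325823, minus strand): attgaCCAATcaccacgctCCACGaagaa
*Pdia6* (chr12:17266486-17266514, plus strand): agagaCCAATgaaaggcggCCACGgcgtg
*Creld2* (chr15:88819515-88819543, minus strand): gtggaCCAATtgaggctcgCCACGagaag
The first base of the element lay 65 bases before the start site in *Hspa5* and 212 and 107 bases before it in *Hsp90b1*. The XBP1-type element TGACGTGG was in none of the 31 promoters (0 of 31, against 0.714% of genes), and the core of the NRF2-bound antioxidant response element, TGACNNNGC, was in 7 of 31 (*Ern1*, *Hsph1*, *Dnajb1*, *Calr*, *Pdia3*, *Sdf2l1* and *Herpud1*) against 14% of genes. These matches describe letters in a window and do not show binding.

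The lines were compared by a limma model of log2(CPM + 0.1) for the 14652 genes whose CPM summed to at least 3, and a gene is said to rise or fall at a Benjamini-Hochberg adjusted p under 0.05. Fold changes are on that scale and so understate the change of low genes. Of the 41 members, 40 were tested, and *Hspa1a* was too low. The comparisons with LL2 WT share its 3 samples. Since whole cultures were measured, a lower level per cell and fewer expressing cells cannot be told apart.

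In the *KEAP1* KO clones, the cytosolic chaperones were mostly higher than in LL2 WT, and the ER chaperones were flat or slightly lower. In *KEAP1* KO #1, 9 of 40 members rose and 4 fell, where 15.9% of all tested genes rose and 7.25% fell. In *KEAP1* KO #2, 13 rose and 5 fell, against 17.3% and 14.6% of all genes. In *KEAP1* KO #3, 10 rose and 4 fell, against 16.6% and 14.8%. The median log2 fold change of the members was 0.26, 0.26 and 0.32 in the clones in order, beside 0.11, 0.03 and 0.02 over all tested genes. In *NRF2* KO, 0 of 40 members passed in limma, where 0.130% of all genes rose and 0.491% fell, and 3 members (*Hspb8*, *Dnajb4* and *Hspa5*) had an unadjusted p under 0.05.

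Changes past 2-fold were fewer. They numbered 3 in clone #1 (8.54% of all genes), 8 in clone #2 (13.7%), 7 in clone #3 (13.4%) and 0 in *NRF2* KO (0.464%). The cytosolic genes *Dnajb4*, *Hspb8*, *Hspa1b*, *Hsp90aa1*, *Hsph1*, *Bag3* and *Dnajb1* rose in the comparison of each clone, and the disulfide isomerase gene *Pdia4* fell in each. Passing in several clones is not independent evidence, since the comparisons share the LL2 WT samples. The share of all tested genes that passed in all 3 clones was not counted.

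Some of these counts turned on single samples. In *KEAP1* KO #2 the number of rising members was 8 without LL2 WT replicate 1 or replicate 3 and 6 without its own replicate 1 or 2, and the number of falling members was 3 without LL2 WT replicate 1 or its own replicate 1 or 2. The count past 2-fold in that clone was 5 without LL2 WT replicate 3. Leaving out LL2 WT replicate 2 instead, 16 members rose in *KEAP1* KO #3 and 6 were past 2-fold in *KEAP1* KO #1. With CPM rescaled by the median ratio, 7 rose and 5 fell in *KEAP1* KO #1, and 7 rose and 7 fell in *KEAP1* KO #2. The shares of all tested genes in these refits were not counted. The median over all genes of clone #1 also moved under that rescaling, from 0.11 to 0.01.

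**Figure D1:**
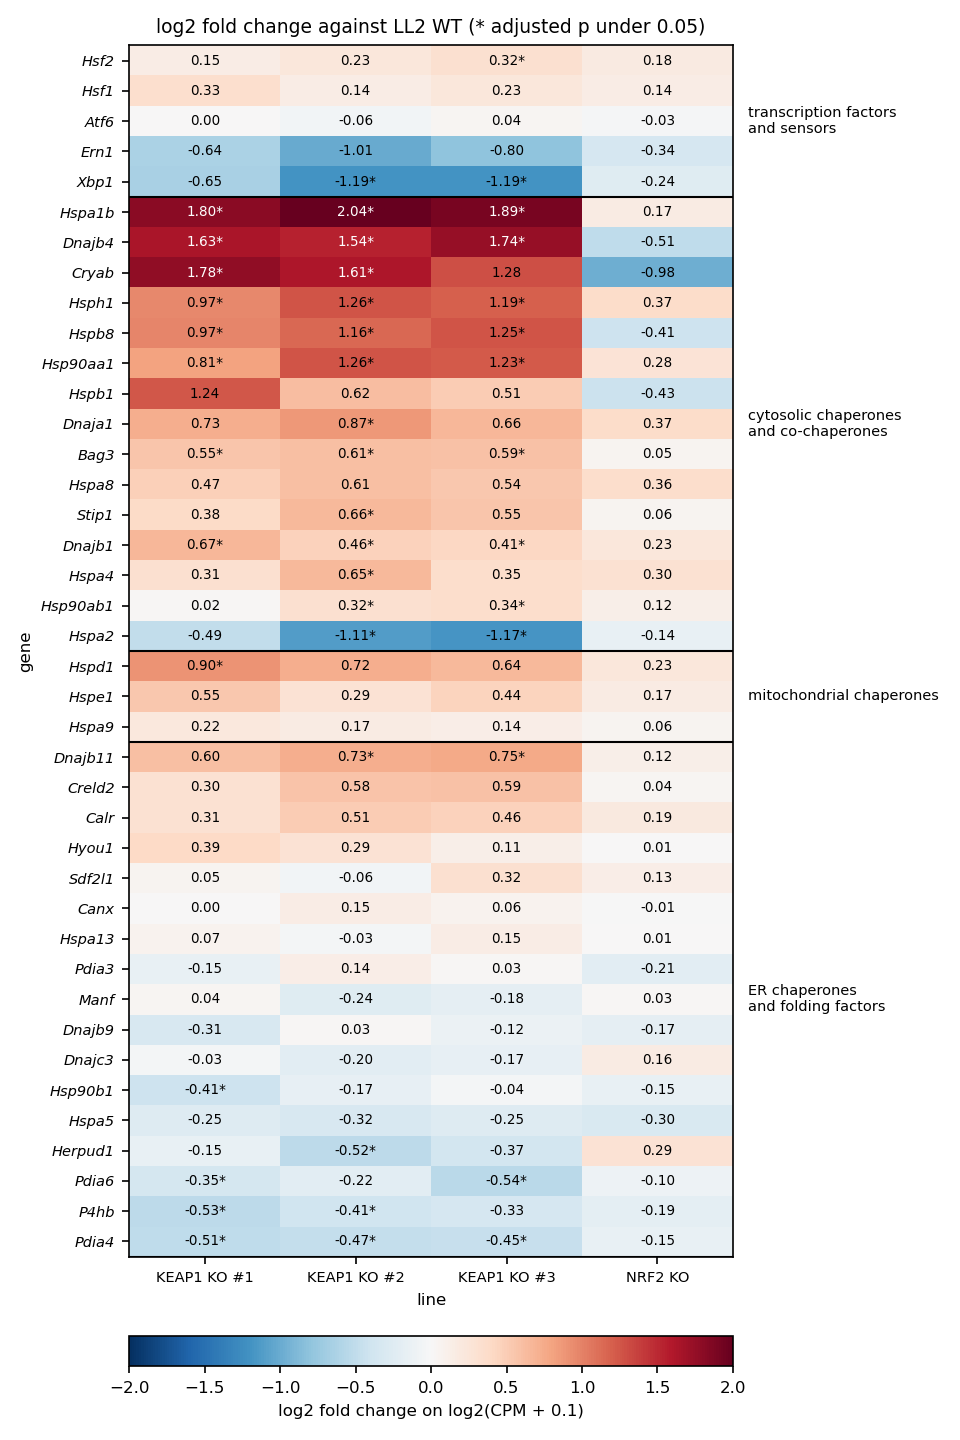
Log2 fold change against LL2 WT on the log2(CPM + 0.1) scale (color and printed value) for the 40 tested members (rows, grouped by role) in the 4 knockout lines (columns); an asterisk marks an adjusted p under 0.05 (limma). The asterisked rises sit mainly among the cytosolic genes, led by *Hspa1b* with 1.80, 2.04 and 1.89, the asterisked falls among the ER genes, *Xbp1* and *Hspa2*, and the *NRF2* KO column has none.

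Of the 5 regulators, *Xbp1* and *Hsf2* passed in a clone, and *Hsf1*, *Atf6* and *Ern1* did not. *Xbp1* (GRCm38 chromosome 11, 5520659 to 5525893), the UPR transcription factor, was measured at 90.6, 73.7 and 115 CPM in parental LL2 WT and at 73.8, 62.3 and 101 CPM in the *NRF2* KO line. It was at 56.8, 46.2 and 76.1 CPM in clone #1, at 37.5, 36.6 and 47.1 CPM in clone #2 and at 35.5, 35.0 and 52.1 CPM in clone #3. The samples of *KEAP1* KO #2 and #3 lay below every LL2 WT sample, those of *KEAP1* KO #1 overlapped with them, and replicate 3 was the highest in each of the 5 lines. *Xbp1* fell by 1.19 on the log2 scale in clone #2 (standard error, SE, 0.24, adjusted p = 0.0021 from limma) and equally in clone #3 (adjusted p = 0.002), a 2.28-fold lower level in both. In clone #1 the log2 fold change was −0.65 (adjusted p = 0.0633), which passed without LL2 WT replicate 2, *KEAP1* KO #1 replicate 3 or *NRF2* KO replicate 3 (−0.84 to −0.65, adjusted p from 0.035 to 0.0472). The table sums transcripts to genes, so spliced and unspliced *Xbp1* mRNA were not separated.

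*Ern1*, the IRE1 sensor that splices *Xbp1* mRNA, averaged 59.4 ± 27.2 CPM in parental LL2 WT, with 1 sample at 89.7 CPM, against 36.4 ± 9.39, 28.1 ± 6.79 and 32.6 ± 9.38 CPM in the *KEAP1* KO clones and 47.5 ± 24.4 CPM in the *NRF2* KO line. Its log2 fold changes of −0.64, −1.01 and −0.80 in the clones did not pass (adjusted p of 0.229, 0.0511 and 0.112 from limma). The value in clone #2 passed without LL2 WT replicate 2, *KEAP1* KO #2 replicate 3, *KEAP1* KO #3 replicate 3 or *NRF2* KO replicate 3 (−1.30 to −1.01, adjusted p from 0.0203 to 0.0479), and that in clone #3 without LL2 WT replicate 2 (−1.09, adjusted p = 0.0434).

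*Hsf1* (chromosome 15, 76477422 to 76501913), the main heat shock activator, was at 36.4, 41.6 and 31.8 CPM in parental LL2 WT and at 43.3, 42.9 and 35.0 CPM in the *NRF2* KO line. The clones were at 43.2, 49.8 and 44.5 CPM (clone #1), 37.3, 40.9 and 42.6 CPM (clone #2) and 39.4, 45.9 and 43.0 CPM (clone #3). Every *KEAP1* KO #1 sample was above LL2 WT and the other lines overlapped with it, but no difference passed (adjusted p from 0.0632 to 0.729 over the 4 lines). *Hsf2*, a related factor, rose slightly in clone #3, from 23.1 ± 1.62 to 28.9 ± 1.94 CPM (log2 fold change 0.32, adjusted p = 0.0176), a call that ended without LL2 WT replicate 1 or *KEAP1* KO #3 replicate 3 (0.27 to 0.30, adjusted p from 0.0556 to 0.0589). *Atf6* averaged between 36.9 and 39.7 CPM in every line. HSF1 and ATF6 act after activation of the protein and XBP1 after splicing of its mRNA, and these gene-level values measure neither step.

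Among the 15 tested cytosolic chaperones and co-chaperones, 8 rose in clone #1, 12 in clone #2 and 8 in clone #3. The shares of all tested genes that rose were 15.9%, 17.3% and 16.6%. *Hspa2* fell in clones #2 and #3, where 14.6% and 14.8% of all tested genes fell. The median log2 fold change of the 15 genes was 0.73, 0.66 and 0.59 in the clones and 0.12 in *NRF2* KO. With median-ratio rescaling the rising members numbered 7, 7 and 6, and without replicate 3 of every line 8, 13 and 11. The shares of all tested genes in these refits were not counted. The largest fitted rises were in *Hspa1b*, *Dnajb4* and *Cryab*.

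**Figure D2:**
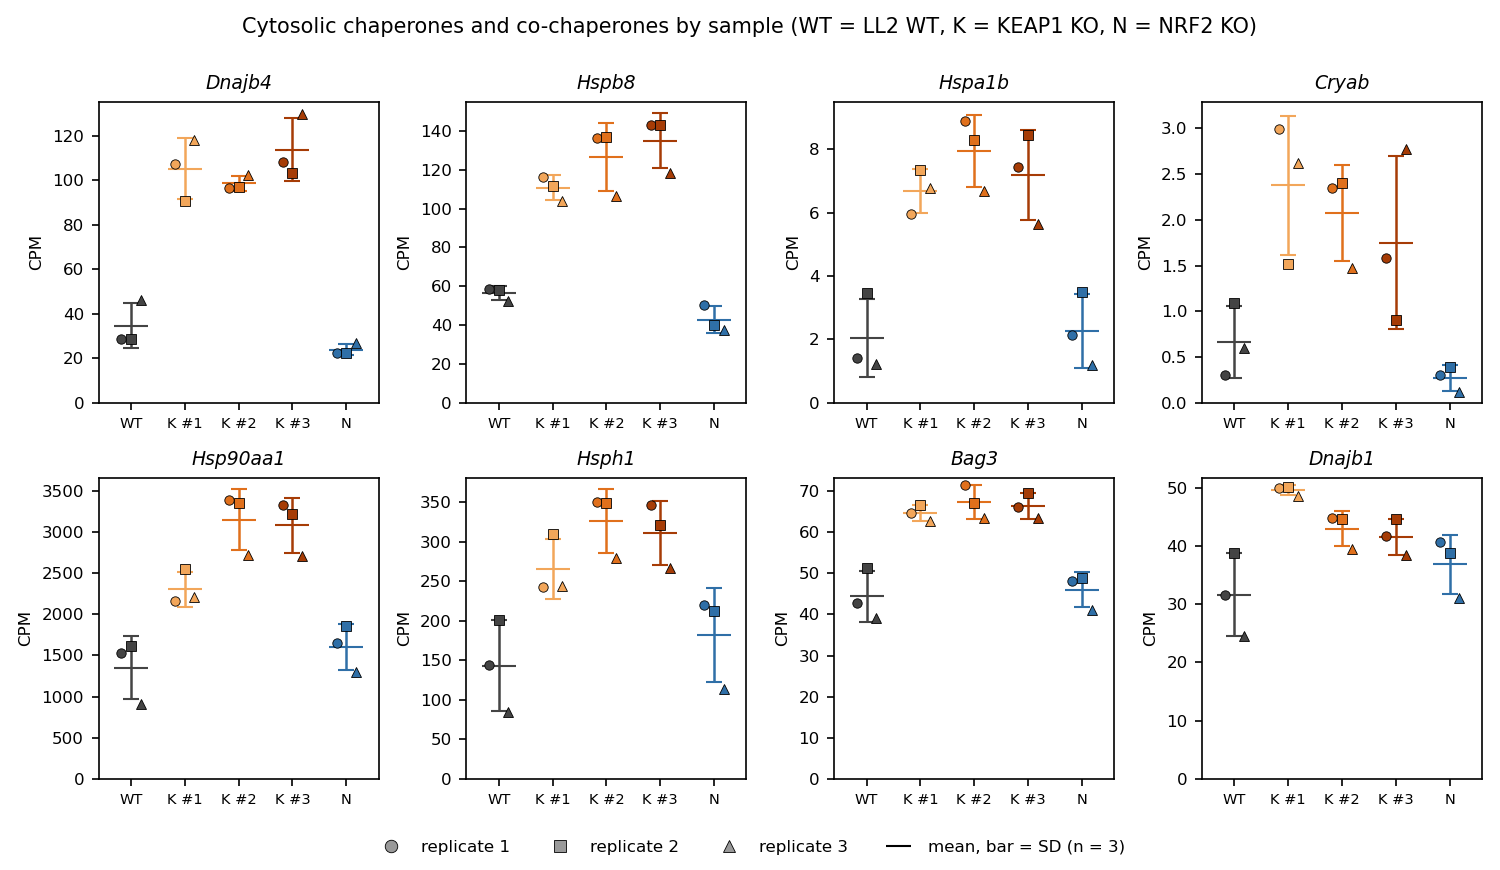
CPM per sample (points, shape for the replicate number) with the mean and SD (bars, n = 3) of 8 cytosolic chaperone genes in LL2 WT (WT), *KEAP1* KO #1, #2 and #3 (K) and *NRF2* KO (N); each axis starts at 0. *Dnajb4* lies at 90.5 CPM or more in all 9 *KEAP1* KO samples and at 46.4 CPM or less in the other 6, and *Hspb8*, *Hspa1b*, *Hsp90aa1*, *Hsph1* and *Bag3* are separated in the same way. The genes shown were picked among those that passed, and the share of all genes so separated was not counted.

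*Dnajb4* (chromosome 3, 152178511 to 152210302), a J-domain co-chaperone of HSP70, was at 28.8, 28.9 and 46.4 CPM in parental LL2 WT and at 22.4, 22.3 and 26.8 CPM in the *NRF2* KO line. It was at 107, 90.5 and 118 CPM in clone #1, at 96.7, 96.9 and 102 CPM in clone #2 and at 108, 103 and 129.8 CPM in clone #3. All 9 *KEAP1* KO samples lay above every LL2 WT sample, and the *NRF2* KO samples lay below it. The level was 3.09-fold, 2.92-fold and 3.34-fold that of LL2 WT in the clones, with log2 fold changes of 1.63, 1.54 and 1.74 (SE 0.17, adjusted p of 3.12e-05, 2.46e-05 and 8.42e-06 from limma). In *NRF2* KO the log2 fold change was −0.51 (adjusted p = 0.272).

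*Hspb8* (chromosome 5, 116408491 to 116422864) encodes a small heat shock protein that works with BAG3 in chaperone-assisted autophagy. It was at 58.9, 58.2 and 52.3 CPM in parental LL2 WT and at 50.6, 39.8 and 37.6 CPM in the *NRF2* KO line. In the clones it was at 116, 112 and 104 CPM, at 137, 137 and 106 CPM, and at 143, 143 and 119 CPM in order. The 9 *KEAP1* KO samples were again above and the 3 *NRF2* KO samples below every LL2 WT sample. Log2 fold changes were 0.97, 1.16 and 1.25 in the clones (SE 0.13, adjusted p of 0.000232, 3.05e-05 and 1.42e-05) and did not pass in *NRF2* KO (adjusted p = 0.233). Its partner *Bag3* rose from 44.4 ± 6.22 CPM in parental LL2 WT to 64.7 ± 1.96, 67.3 ± 4.04 and 66.4 ± 3.11 CPM in the clones (log2 fold changes of 0.55, 0.61 and 0.59, adjusted p from 0.000795 to 0.00241), and was at 46.0 ± 4.26 CPM in the *NRF2* KO line.

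*Hspa1b* (chromosome 17, 34956436 to 34959238), a stress-inducible HSP70 gene, was low in these cultures without a further treatment. It was at 1.43, 3.48 and 1.23 CPM in parental LL2 WT and at 2.16, 3.50 and 1.18 CPM in the *NRF2* KO line. The *KEAP1* KO clones were at 5.95, 7.34 and 6.79 CPM, at 8.88, 8.28 and 6.69 CPM and at 7.46, 8.46 and 5.65 CPM. All 9 of these samples lay above the other 6. Relative to LL2 WT the level was 3.49-fold, 4.12-fold and 3.71-fold (log2 fold changes of 1.80, 2.04 and 1.89, SE 0.38, adjusted p of 0.00486, 0.00145 and 0.00235). Its near-identical neighbor *Hspa1a* (chromosome 17, 34969190 to 34972156) was under 0.1 CPM in every sample of LL2 WT, *KEAP1* KO #2, *KEAP1* KO #3 and *NRF2* KO, and at 0.313, 0.417 and 0.254 CPM in clone #1. Of the 31-base stretches of the *Hspa1b* transcript 67.7% also occur in *Hspa1a*, so the split of reads between the genes is uncertain. With the values of both genes summed, each of the 3 clones still passed.

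*Cryab* (chromosome 9, 50751325 to 50756636), the small heat shock protein alpha-B-crystallin, was at 0.305, 1.09 and 0.598 CPM in parental LL2 WT and at 0.305, 0.394 and 0.120 CPM in the *NRF2* KO line. It was at 2.99, 1.52 and 2.62 CPM in clone #1, at 2.35, 2.40 and 1.47 CPM in clone #2 and at 1.58, 0.904 and 2.77 CPM in clone #3. *KEAP1* KO #1 and #2 did not overlap with LL2 WT, and 1 sample of *KEAP1* KO #3 did. The log2 fold changes were 1.78, 1.61 and 1.28 (adjusted p of 0.0174, 0.021 and 0.0569). Calls at this low level turned on single samples. That in clone #1 ended without LL2 WT replicate 1 or *KEAP1* KO #1 replicate 1 or 3 (1.39 to 1.69, adjusted p from 0.0549 to 0.0762). That in clone #2 ended without LL2 WT replicate 1 or *KEAP1* KO #2 replicate 1 or 2 (1.22 to 1.51, adjusted p from 0.072 to 0.0921), and *KEAP1* KO #3 passed without LL2 WT replicate 2, *KEAP1* KO #3 replicate 2 or *NRF2* KO replicate 3 (1.28 to 1.67, adjusted p from 0.0226 to 0.046). The gene shares 14.8% of its stretches with its neighbor *Hspb2*. *Cryab* had −0.98 in *NRF2* KO (adjusted p = 0.48).

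Both cytosolic HSP90 genes rose in at least 2 clones. *Hsp90aa1* (chromosome 12, 110690605 to 110702728), the stress-inducible form, was at 1525, 1619 and 911 CPM in parental LL2 WT and at 1656, 1853 and 1301 CPM in the *NRF2* KO line. It was at 2158, 2549 and 2207 CPM in clone #1, at 3382, 3352 and 2719 CPM in clone #2 and at 3328, 3213 and 2704 CPM in clone #3. All 9 *KEAP1* KO samples were above the other 6. The log2 fold changes were 0.81, 1.26 and 1.23 (adjusted p of 0.0114, 0.000435 and 0.000514), and the first did not pass without *KEAP1* KO #1 replicate 2 (0.74, adjusted p = 0.0527). The pseudogene *Gm12346* holds 46.7% of its 31-base stretches but averaged at most 2.48 CPM in any line. *Hsp90ab1*, the constitutive form, averaged 4074 ± 373 CPM in parental LL2 WT, 4132 ± 203 CPM in clone #1, 5067 ± 227 CPM in clone #2, 5161 ± 188 CPM in clone #3 and 4417 ± 175 CPM in the *NRF2* KO line. It rose in clone #2 (0.32, adjusted p = 0.0192) and #3 (0.34, adjusted p = 0.0127). The first call ended without *KEAP1* KO #2 replicate 1 or 2 (0.30, adjusted p of 0.0718 and 0.0698) and the second without *KEAP1* KO #3 replicate 1 (0.33, adjusted p = 0.0506).

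*Hsph1* (chromosome 5, 149614287 to 149636376), a nucleotide exchange factor for HSP70 whose promoter holds the heat shock element, was at 144, 201 and 85.0 CPM in parental LL2 WT and at 220.4, 213 and 113 CPM in the *NRF2* KO line. The clones were at 243, 309 and 244 CPM, at 349.8, 349 and 279 CPM and at 346, 321 and 266 CPM. Every *KEAP1* KO sample was above the other 6, and replicate 3 was the lowest in LL2 WT and in *NRF2* KO. Its log2 fold changes were 0.97, 1.26 and 1.19 (SE 0.29, adjusted p of 0.0302, 0.00543 and 0.00744). The call in clone #1 ended without LL2 WT replicate 1 or 3 or any of the 3 *KEAP1* KO #1 samples (0.63 to 1.02, adjusted p from 0.0554 to 0.118).

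*Dnajb1*, a heat-inducible J-domain co-chaperone, was at 31.6, 38.8 and 24.6 CPM in parental LL2 WT, at 49.9, 50.1 and 48.6 CPM in clone #1, at 44.8, 44.7 and 39.4 CPM in clone #2, at 41.7, 44.5 and 38.4 CPM in clone #3 and at 40.7, 38.7 and 31.1 CPM in the *NRF2* KO line. *KEAP1* KO #1 and #2 lay above LL2 WT, and *KEAP1* KO #3 overlapped with it. Log2 fold changes were 0.67, 0.46 and 0.41 (adjusted p of 0.00606, 0.0299 and 0.0487). The call in clone #2 ended without LL2 WT replicate 1 or 3 or *KEAP1* KO #2 replicate 1 or 2 (0.29 to 0.47, adjusted p from 0.0645 to 0.113). That in clone #3 ended without any 1 of 12 of the 15 samples, the exceptions being LL2 WT replicate 2, *KEAP1* KO #3 replicate 3 and *NRF2* KO replicate 3 (0.24 to 0.42, adjusted p from 0.0534 to 0.184).

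The co-chaperone *Dnaja1*, the HSP70-HSP90 adaptor *Stip1* and the exchange factor *Hspa4* passed in clone #2 and in no other line. *Dnaja1* was at 203, 281 and 123 CPM in parental LL2 WT, at 300.2, 367 and 289 CPM in clone #1, at 389, 414 and 264 CPM in clone #2, at 351, 332 and 240.5 CPM in clone #3 and at 301, 308 and 165 CPM in the *NRF2* KO line. *Stip1* was at 428, 466 and 241 CPM in parental LL2 WT, at 488, 497 and 434 CPM in clone #1, at 586, 594 and 541 CPM in clone #2, at 556, 557 and 485 CPM in clone #3 and at 418, 434 and 299.7 CPM in the *NRF2* KO line. *Hspa4* was at 193, 251 and 133 CPM in parental LL2 WT, at 243, 248 and 205 CPM in clone #1, at 314, 328 and 241 CPM in clone #2, at 263, 252 and 201 CPM in clone #3 and at 246, 277 and 176 CPM in the *NRF2* KO line. For these 3 genes replicate 3 was the lowest sample of each line, and LL2 WT replicate 3 was the lowest of all 15. Of the *KEAP1* KO #2 values, those of *Stip1* lay above every LL2 WT sample and those of the other 2 genes overlapped. Other genes hold 22.6% of the 31-base stretches of *Dnaja1*, mainly *Gm15542* (11.2%). *Gm15542* averaged 25.4 CPM in parental LL2 WT, 34.1, 40.8 and 27.6 CPM in the clones in order and 24.3 CPM in the *NRF2* KO line. The split of reads between these genes is thus uncertain.

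In clone #2 the log2 fold changes were 0.87 for *Dnaja1* (adjusted p = 0.0443), 0.66 for *Stip1* (adjusted p = 0.028) and 0.65 for *Hspa4* (adjusted p = 0.0405). Those of *Dnaja1* in clones #1 and #3 were 0.73 and 0.66 (adjusted p of 0.102 and 0.112) and that of *Stip1* in clone #3 was 0.55 (adjusted p = 0.0593), so passing in 1 clone does not show a difference between clones. The *Stip1* call ended without LL2 WT replicate 3 or *KEAP1* KO #2 replicate 1 or 2 (0.36 to 0.64, adjusted p from 0.0781 to 0.0815). The *Hspa4* call ended without any 1 of 8 samples (0.41 to 0.68, adjusted p from 0.0506 to 0.168), namely LL2 WT replicates 1 and 3, replicates 1 and 2 of *KEAP1* KO #1 and #2, *KEAP1* KO #3 replicate 2 and *NRF2* KO replicate 1. The *Dnaja1* call ended without any of these 8 and also without *KEAP1* KO #1 replicate 3 or *KEAP1* KO #3 replicate 1 (10 samples, 0.55 to 0.91, adjusted p from 0.0504 to 0.186). Without LL2 WT replicate 2, *Dnaja1* passed in clone #1 (1.00, adjusted p = 0.0297) and #3 (0.94, adjusted p = 0.0318), and *Stip1* passed in clone #3 (0.73, adjusted p = 0.0196), as it did without *NRF2* KO replicate 3 (0.55, adjusted p = 0.0433).

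*Hspa8*, the constitutive HSP70, and *Hspb1*, a small heat shock protein, passed in no line. *Hspa8* averaged 2372 ± 845 CPM in parental LL2 WT, with replicates at 2326, 3240.0 and 1552 CPM, and its log2 fold changes of 0.61 and 0.54 in clones #2 and #3 (adjusted p of 0.104 and 0.148) passed without LL2 WT replicate 2 (0.87 and 0.80, adjusted p of 0.0255 and 0.0373). *Hspb1* lay below 1 CPM in every sample and is listed at 0 in LL2 WT replicate 2 and *NRF2* KO replicate 2. Its log2 fold changes were 1.24, 0.62 and 0.51 in the clones (adjusted p from 0.247 to 0.634), and its direction in clones #2 and #3 turned without LL2 WT replicate 2. Other genes hold 44.8% of the 31-base stretches of *Hspa8* and 55.4% of those of *Hspb1*.

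*Hspa2* (chromosome 12, 76404176 to 76406938), an HSP70 gene best known from the testis, went the other way. It was at 3.67, 3.81 and 5.12 CPM in parental LL2 WT and at 3.42, 3.3 and 4.68 CPM in the *NRF2* KO line. The clones were at 2.86, 2.51 and 3.50 CPM, at 1.48, 1.92 and 2.27 CPM and at 1.83, 1.33 and 2.35 CPM, all lower than the lowest LL2 WT sample. It fell, with log2 fold changes of −1.11 in clone #2 (adjusted p = 0.00432) and −1.17 in clone #3 (adjusted p = 0.00306), but *KEAP1* KO #1 did not pass (adjusted p = 0.173).

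Of the 3 mitochondrial chaperones, *Hspd1* (chromosome 1, 55077835 to 55088243), the HSP60 gene, passed in 1 clone. It was at 1016, 1316 and 612 CPM in parental LL2 WT and at 1315, 1298 and 777 CPM in the *NRF2* KO line. The clones were at 1744, 1999 and 1509.6 CPM, at 1662, 1701 and 1298 CPM and at 1654, 1524 and 1234 CPM. *KEAP1* KO #1 lay above LL2 WT, the other clones overlapped with it, and replicate 3 was the lowest sample of each line. The log2 fold changes were 0.90, 0.72 and 0.64 (adjusted p of 0.0271, 0.0522 and 0.0803). The call in clone #1 ended without LL2 WT replicate 1 or 3 or *KEAP1* KO #1 replicate 1 or 2 (0.59 to 0.96, adjusted p from 0.0517 to 0.105). *KEAP1* KO #2 passed without LL2 WT replicate 2, *KEAP1* KO #2 replicate 3 or *NRF2* KO replicate 3 (0.72 to 0.97, adjusted p from 0.0134 to 0.0478), and *KEAP1* KO #3 without LL2 WT replicate 2 (0.89, adjusted p = 0.021). Of its stretches 53.1% also occur in other genes, mainly the pseudogene *Hspd1-ps3*, which averaged at most 1.18 CPM in any line.

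*Hspe1*, the HSP10 partner of HSP60 that shares the promoter shown above, averaged 803 ± 288 CPM in parental LL2 WT, 1129 ± 199, 945 ± 159 and 1062 ± 245 CPM in the clones and 899 ± 305 CPM in the *NRF2* KO line. *Hspa9*, the mitochondrial HSP70, averaged from 474 CPM in parental LL2 WT to 551 CPM in clone #1. Neither passed in any line.

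**Figure D3:**
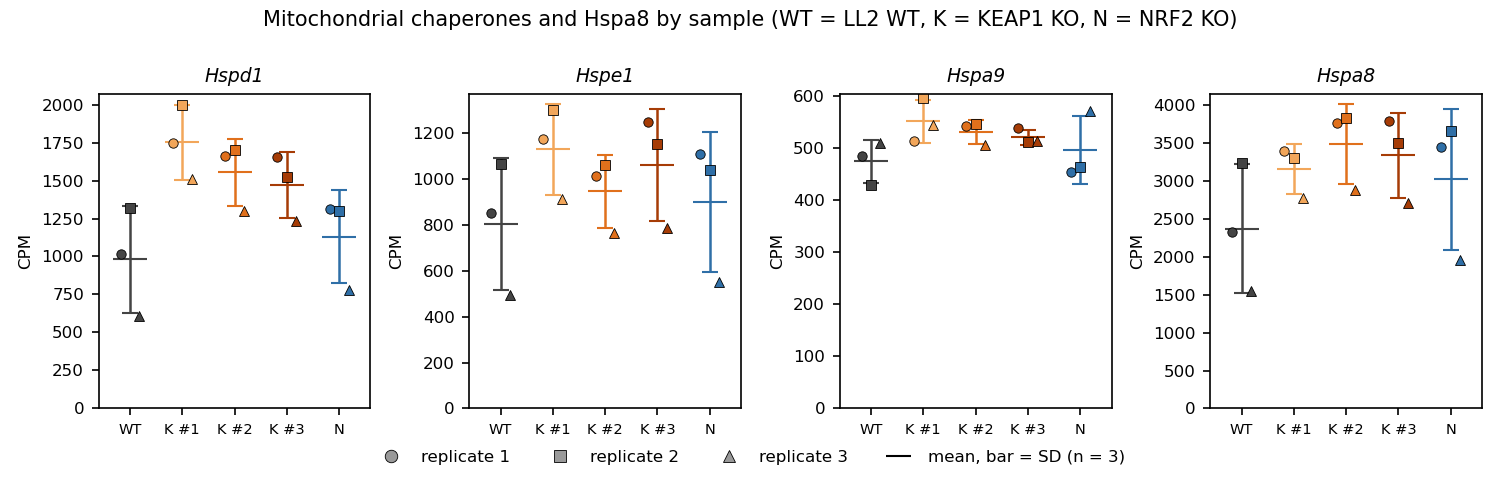
CPM per sample (points, shape for the replicate number) with the mean and SD (bars, n = 3) of the 3 mitochondrial chaperone genes and the constitutive HSP70 gene *Hspa8* in the 5 lines; each axis starts at 0. For *Hspd1*, *Hspe1* and *Hspa8* the triangle (replicate 3) is the lowest point of each line, with *Hspd1* at 612 CPM in parental LL2 WT replicate 3.

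The 17 ER chaperones and folding factors changed little. In clone #1 0 rose and 4 fell, in clone #2 1 rose and 3 fell, and in clone #3 1 rose and 2 fell. Over all tested genes 15.9%, 17.3% and 16.6% rose and 7.25%, 14.6% and 14.8% fell in the clones in order. The falls in clones #2 and #3 thus lay near the share of all genes. The median log2 fold changes of the 17 genes were −0.03, −0.06 and −0.04. Without replicate 3 of every line, 1, 5 and 4 of the 17 rose and 5, 5 and 2 fell in the clones in order. The shares of all tested genes in that fit were not counted. Changes past 2-fold numbered 0 of 17, where 8.54%, 13.7% and 13.4% of all tested genes were past 2-fold in the clones. Of the 17, 11 passed in no clone, and the share of all tested genes that passed in none was not counted. *Hspa5* (chromosome 2, 34771970 to 34777547), the gene of BiP, the central HSP70 of the ER, was at 684, 834 and 806 CPM in parental LL2 WT and at 726, 582 and 577 CPM in the *NRF2* KO line. The clones were at 644, 625 and 672 CPM, at 662, 695 and 511 CPM and at 691, 682 and 575 CPM. *KEAP1* KO #1 lay just under LL2 WT and the other lines overlapped with it. No difference of *Hspa5* passed (adjusted p from 0.0813 to 0.418 over the 4 lines).

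The falls were in disulfide isomerases, an HSP90 and a degradation factor. *Pdia4* averaged 249 ± 24.5 CPM in parental LL2 WT, 175 ± 13.7, 179 ± 2.2 and 182 ± 3.09 CPM in the clones and 224 ± 22.5 CPM in the *NRF2* KO line. All 9 *KEAP1* KO samples, from 161 to 189 CPM, lay below every LL2 WT sample. Log2 fold changes of −0.51, −0.47 and −0.45 passed in each clone (SE 0.09, adjusted p from 0.00179 to 0.00251) and in each fit that left out 1 sample. *Pdia6*, which holds the ER stress response element, averaged 596 ± 30.7 CPM in parental LL2 WT and 469 ± 39.0, 512 ± 15.4 and 409.5 ± 9.66 CPM in the clones. It passed in clone #1 (−0.35, adjusted p = 0.00867) and #3 (−0.54, adjusted p = 0.000287). *P4hb* averaged 602 ± 107 CPM in parental LL2 WT and passed in clone #1 (−0.53, adjusted p = 0.0121) and #2 (−0.41, adjusted p = 0.0328), the second call ending without LL2 WT replicate 1 or 3 or any *KEAP1* KO #2 sample (−0.44 to −0.27, adjusted p from 0.0551 to 0.124).

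*Hsp90b1*, the ER form of HSP90 with a pair of response elements, averaged 821 ± 110 CPM in parental LL2 WT and 617 ± 57.5 CPM in clone #1 (−0.41, adjusted p = 0.0197), a call that ended without LL2 WT replicate 3 or *KEAP1* KO #1 replicate 1 or 2 (−0.38 to −0.30, adjusted p from 0.0646 to 0.0842). *Herpud1*, a factor of ER-associated degradation, averaged 49.0 ± 14.2 CPM in parental LL2 WT and 33.3 ± 1.93 CPM in clone #2 (−0.52, adjusted p = 0.0313), a call that ended without LL2 WT replicate 1 or any *KEAP1* KO #2 sample (−0.57 to −0.29, adjusted p from 0.0558 to 0.119).

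*Dnajb11*, a J-domain partner of BiP, was the 1 ER member that rose in the fit over all samples. It was at 65.4, 81.9 and 46.9 CPM in parental LL2 WT and at 78.6, 83.8 and 49.3 CPM in the *NRF2* KO line. The clones were at 94.3, 107 and 86.0 CPM, at 118, 119 and 82.6 CPM and at 118, 121 and 84.1 CPM. All 9 *KEAP1* KO samples lay above every LL2 WT sample, the lowest by under 1 CPM. The log2 fold change was 0.60 in clone #1 (adjusted p = 0.0941), 0.73 in clone #2 (adjusted p = 0.0347) and 0.75 in clone #3 (adjusted p = 0.031). The call in clone #2 ended without LL2 WT replicate 1 or 3 or *KEAP1* KO #2 replicate 1 or 2 (0.52 to 0.76, adjusted p from 0.0703 to 0.142) and that in clone #3 without LL2 WT replicate 1 or 3 or *KEAP1* KO #3 replicate 1 or 2 (0.54 to 0.78, adjusted p from 0.0641 to 0.126). Without LL2 WT replicate 2, *KEAP1* KO #1 passed as well (0.78, adjusted p = 0.0386).

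The 11 remaining ER members passed in none of the clones, among them *Hspa5*. *Creld2*, a factor induced in the UPR, had log2 fold changes of 0.58 and 0.59 in clones #2 and #3 (adjusted p of 0.0904 and 0.0869), and these passed without LL2 WT replicate 2 (0.76 and 0.77, adjusted p of 0.0396 and 0.0392), the second also without *KEAP1* KO #3 replicate 3 (0.76, adjusted p = 0.0442). The lectin chaperone *Calr* had 0.51 in clone #2 (adjusted p = 0.217). The others were the lectin chaperone *Canx*, the isomerase *Pdia3*, the J-domain genes *Dnajb9* and *Dnajc3*, and *Hspa13*, *Hyou1*, *Sdf2l1* and *Manf*, whose log2 fold changes ranged from −0.31 (*Dnajb9* in clone #1) to 0.39 (*Hyou1* in clone #1).

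**Figure D4:**
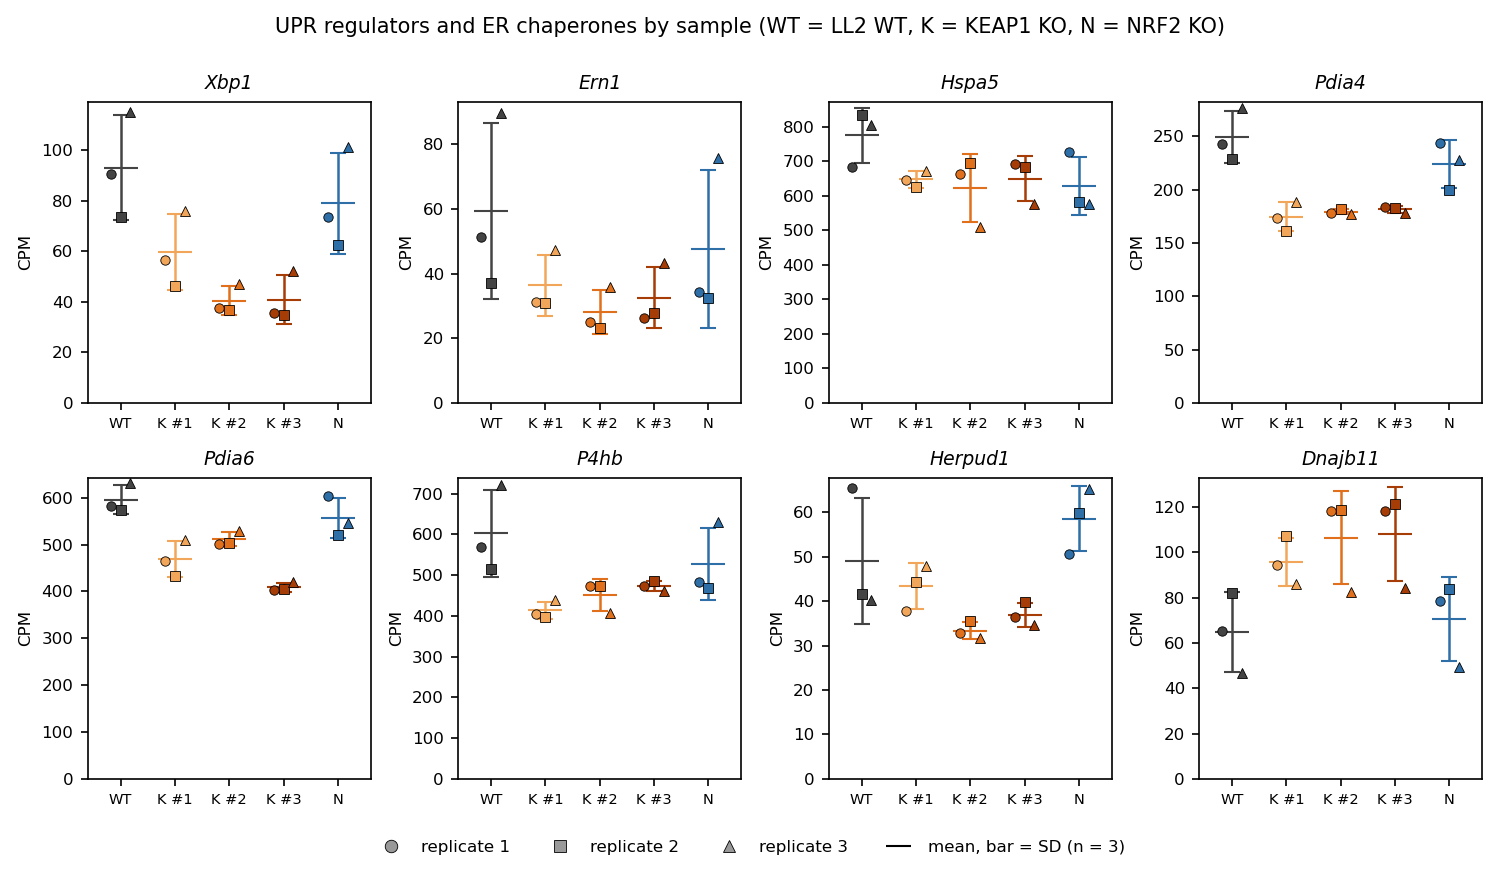
CPM per sample (points, shape for the replicate number) with the mean and SD (bars, n = 3) of *Xbp1*, *Ern1* and 6 ER genes in the 5 lines; each axis starts at 0. *Pdia4* lies at 189 CPM or less in all 9 *KEAP1* KO samples and above that in the other 6, while *Hspa5* overlaps between most lines.

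The samples with replicate number 3 stood apart in several of these genes. As the median over the 15 tested cytosolic members, replicate 3 minus the mean of replicates 1 and 2 was −0.51 on the log2 scale in LL2 WT, −0.09, −0.31 and −0.20 in the clones and −0.43 in *NRF2* KO. For the 3 mitochondrial genes it was −0.92 in LL2 WT, between −0.37 and −0.31 in the clones and −0.75 in *NRF2* KO. Over all tested genes this median lay between 0.02 and 0.16. *Ern1* went the other way, at 1.04 in LL2 WT and 1.18 in *NRF2* KO. The labels do not say how replicate 3 differed. Without replicate 3 of every line, 12, 20 and 17 members rose and 7, 8 and 5 fell in the clones in order, and 0 passed in *NRF2* KO. The shares of all tested genes that rose or fell in that fit were not counted, so the larger counts are not a result about these members.

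Read per sample, the *KEAP1* KO lines stood above the other lines in the cytosolic members and overlapped with them in the ER members. The median over the 15 tested cytosolic genes of the log2 ratio to the LL2 WT mean ran from −0.34 to 0.32 in LL2 WT, from −0.22 to 0.25 in *NRF2* KO and from 0.52 to 0.82 in the 9 *KEAP1* KO samples. For the 17 ER genes it ran from −0.03 to 0.07 in LL2 WT, from −0.13 to 0.09 in *NRF2* KO and from −0.20 to 0.01 in the *KEAP1* KO samples. Summed over all members, from 14179.9 CPM (LL2 WT replicate 3) to 23608.1 CPM (clone #2 replicate 2) came from these genes in a sample.

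**Figure D5:**
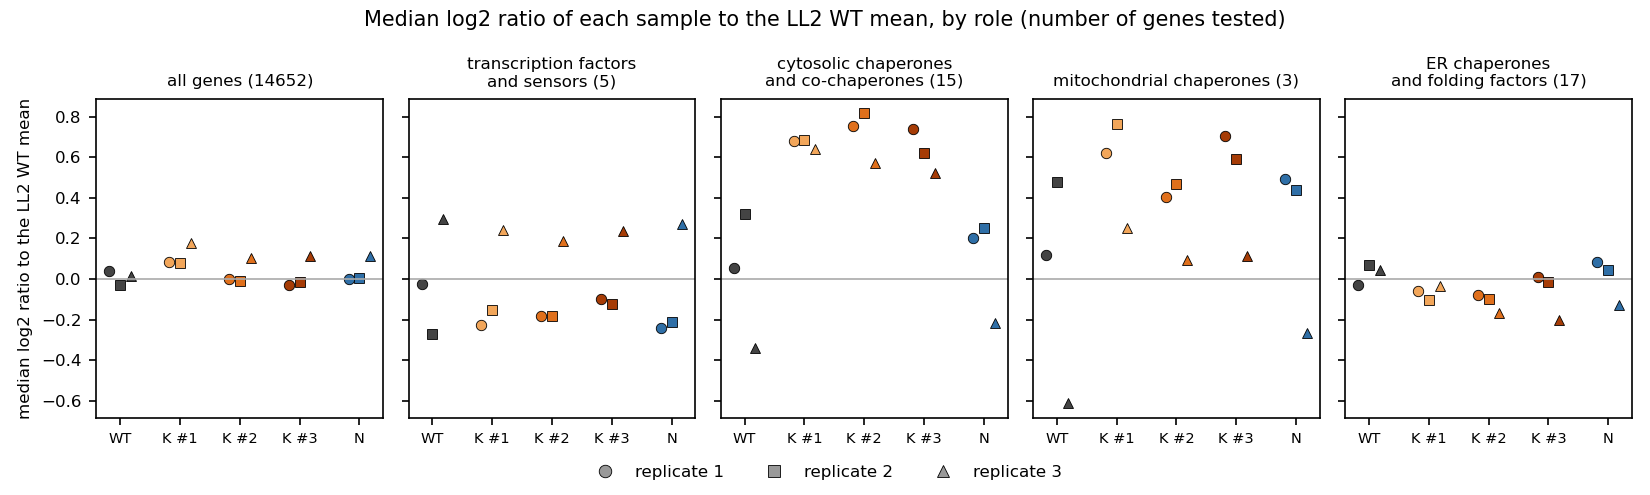
Median log2 ratio to the LL2 WT mean in each sample (points, shape for the replicate number) over all tested genes and over the tested members of each role, for the 5 lines. The 9 *KEAP1* KO points of the cytosolic panel sit between 0.52 and 0.82, above the 6 others, while the ER panel stays between −0.20 and 0.09.

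Few members differed between the clones in the main fit. More differed between clone #1 and each of the other clones without replicate 3 of every line or with a replicate block, as counted in the closing sections. Between *KEAP1* KO #2 and #1, 0 of 40 members differed in limma, where 3.94% of all genes were higher in #2 and 7.15% lower, and 5 members had an unadjusted p under 0.05. Between *KEAP1* KO #3 and #2, 0 differed, where 0.375% of all genes were higher and 0.389% lower, and 1 member had an unadjusted p under 0.05. Between *KEAP1* KO #3 and #1, 2 were higher (4.55% of all genes) and 0 lower (7.70%), namely *Hsp90ab1* (0.32 higher in clone #3 on the log2 scale, adjusted p = 0.0382) and *Hsp90b1* (0.37 higher, adjusted p = 0.0499). The count was 0 without replicate 1 or 2 of any clone and 1 without replicate 3 of any clone, LL2 WT replicate 1 or any *NRF2* KO sample. Without replicate 3 of clone #3 neither *Hsp90ab1* nor *Hsp90b1* passed, and the 1 was another member. Between #2 and #1 the count was 1 without LL2 WT replicate 3. A difference that did not pass is not shown to be absent: for *Hsp90ab1* in clone #2 minus #1 the 95% interval of the log2 difference ran from 0.09 to 0.49.

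Set against *NRF2* KO, the mean of the *KEAP1* KO clones differed in 14 members (25.9% of all genes), 8 higher and 6 lower. The higher ones were *Cryab* (log2 difference 2.54, adjusted p = 0.000347), *Dnajb4* (2.14, adjusted p = 1.56e-07), *Hspa1b* (1.74, adjusted p = 0.00113), *Hspb8* (1.54, adjusted p = 2.97e-07), *Hsp90aa1* (0.82, adjusted p = 0.00229), *Hsph1* (0.77, adjusted p = 0.0292), *Dnajb11* (0.57, adjusted p = 0.0491) and *Bag3* (0.53, adjusted p = 0.000509). Except for *Dnajb11*, none of these overlapped between the 9 and the 3 samples, but they were picked by this same comparison. The share of all tested genes without overlap was not counted. The lower ones were *Hspa2* (−0.78, adjusted p = 0.0117), *Xbp1* (−0.77, adjusted p = 0.0098), *Herpud1* (−0.63, adjusted p = 0.0041), *Pdia4* (−0.32, adjusted p = 0.00662), *Dnajc3* (−0.30, adjusted p = 0.0296) and *Pdia6* (−0.27, adjusted p = 0.0091). Without *NRF2* KO replicate 3 the count was 9, and the calls of *Xbp1* (−0.57, adjusted p = 0.076), *Hspa2* (−0.63, adjusted p = 0.0804), *Hsph1*, *Dnajb11* and *Dnajc3* ended. Without *NRF2* KO replicate 1, those of *Pdia4* (−0.26, adjusted p = 0.0555), *Pdia6* (−0.21, adjusted p = 0.0722), *Dnajb11* and *Dnajc3* ended. *Hsph1* also ended without *KEAP1* KO #1 replicate 2 or *KEAP1* KO #3 replicate 1 (0.46 to 0.74 over its 3 samples, adjusted p from 0.0501 to 0.208). *Dnajb11* ended without any 1 of 10 samples (0.33 to 0.67, adjusted p from 0.0553 to 0.302), all except LL2 WT replicates 2 and 3, replicate 3 of *KEAP1* KO #2 and #3 and *NRF2* KO replicate 2. *Dnajc3* ran from −0.33 to −0.22 (adjusted p from 0.0545 to 0.175).

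Other genes of the same pathways were counted from short lists. Over all tested genes, the shares to set beside these counts were 15.9%, 17.3% and 16.6% rising and 7.25%, 14.6% and 14.8% falling in the clones in order. Of 18 other cytosolic chaperones and co-chaperones tested, 5, 7 and 7 rose in the clones and 0 fell, with the largest rise in *Hspa4l*, an HSP70 exchange factor (33.8 ± 1.51 CPM in parental LL2 WT, 79.9 ± 3.66 CPM in clone #3, log2 fold change 1.24, adjusted p = 3.4e-06). Of the 8 subunits of the CCT chaperonin, which folds actin and tubulin, 1, 3 and 2 rose and 1, 0 and 0 fell, led by *Cct8* (0.71 in clone #3, adjusted p = 0.00888) and, among the falls, *Tcp1* (−0.27 in clone #1, adjusted p = 0.0297). Of 10 other mitochondrial chaperones and proteases, 5, 3 and 4 rose and 0, 0 and 1 fell, with *Clpx*, a protease subunit, at 0.67 in clone #2 (adjusted p = 3.45e-05) and *Yme1l1* at −0.30 in clone #3 (adjusted p = 0.0187).

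On the ER side, the counts again stand beside 15.9%, 17.3% and 16.6% of all tested genes rising and 7.25%, 14.6% and 14.8% falling. Of 14 genes of ER-associated degradation, 2, 4 and 3 rose and 1, 1 and 1 fell. The largest rise was in *Derl3*, which stayed under 1 CPM on average in LL2 WT and the clones (1.93 in clone #3, adjusted p = 0.016), and the largest fall in the mannosidase-like gene *Edem1* (46.8 ± 4.83 CPM in parental LL2 WT, 24.1 ± 6.21 CPM in clone #3, −0.98, adjusted p = 0.000889). Of 16 genes of ER oxidation, import and other folding steps, 1, 1 and 2 rose and 0, 4 and 6 fell, with the signal peptidase subunit *Sec11c* at 0.69 (adjusted p = 0.0167) and the disulfide isomerase *Pdia5* at −0.73 (adjusted p = 0.000524), both in clone #2. Of 5 further UPR sensors and processing enzymes, 1, 1 and 1 rose and 0, 2 and 2 fell, with the protease *Mbtps2*, which cleaves ATF6, at 0.64 in clone #3 (adjusted p = 0.000827) and the PERK gene *Eif2ak3* at −0.74 in clone #2 (adjusted p = 0.0266). Of 8 genes of the PERK and ATF4 branch, 1, 0 and 1 rose and 1, 2 and 1 fell. *Atf3* had 2.31 in clone #1 (4.97 ± 2.52 to 23.5 ± 9.32 CPM, adjusted p = 0.00361), and the asparagine synthetase gene *Asns* had −1.20 in clone #2 (adjusted p = 0.00105). In *NRF2* KO, 0 genes of these 7 lists passed in limma, where 0.130% of all tested genes rose and 0.491% fell, and 2 had an unadjusted p under 0.05.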

How the data were processed

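RNA from 5 LL2 lines (15 samples, 3 biologic replicates each) was sequenced by the authors, pseudo-aligned with kallisto and deposited as CPM per gene symbol. The study's methods name the GRCm38.p6 transcriptome, the submitters' processing notes name GRCm39 and bcl2fastq 1.9.0, so the build of the table is unsure and no coordinate comes from it. The deposited CPM summed to between 998941 and 999306 per sample. They are fractional, and no read counts could be recovered from them. The study's methods give an average depth only and that of each sample is unknown, so no counting interval is given. A row with no symbol (0.0214% to 0.0491% of the CPM) was left out, no 2 samples held identical values, and 0 columns were unused.

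Genes whose CPM summed to at least 3 over the samples were kept (14652, with 21228 removed, of which 10235 were at 0 throughout). log2(CPM + 0.1) was fitted with limma 3.58.1 in R 4.3.3, with a mean per line over all 5 lines, an intensity trend in the empirical Bayes step and Benjamini-Hochberg adjustment over all 14652 genes. Tests were two-sided. The study's methods call the samples biologic replicates, the labels give only their numbers, and each line is 1 line or clone. The p-values rest on the spread between samples of the same line. That spread was pooled over all 5 lines and adjusted across genes in the empirical Bayes step. The fit was run on simulated data with known changes past 2-fold and noise drawn independently for each sample. Only calls past 2-fold were counted there. Smaller changes and deviations shared by replicate number were not simulated. Values were joined and drawn with Python 3.11.15, numpy 2.4.6, pandas 2.3.3 and matplotlib 3.10.9.

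The 41 members and the other lists were chosen with earlier results of these data known. All members are accounted for, and values per sample are given for those past 2-fold in any line, topped up to 14 by the largest passing change, and for *Hsf1*, *Xbp1*, *Hspa5*, *Hspa1a* and *Hspa1b*. Log2 fold changes are printed where a difference passed or reached 0.5, and other lists name a rise and a fall. Alternatives were pseudocounts of 0.5 and 1 CPM, no filter, a mean of at least 1 CPM, median-ratio and quantile scaling, only the lines compared, a replicate block, and leaving out samples.

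Gene positions were taken from GENCODE M21 (GRCm38) and promoters from RefSeq (GRCm38.p6, 250 bases before to 50 after each start site), where 31 of 41 members matched. *Hsf1*, *Atf6*, *Hspa8*, *Hsp90aa1*, *Hsp90ab1*, *Cryab*, *Hspa9*, *Hspa13*, *Hyou1* and *Manf* did not. Shared sequence was counted as stretches of 31 bases that a transcript has in common with another gene.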

Additional observations from a re-analysis of the deposited data

Results flagged for a closer look

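In the main fit, a pair of members differed between *KEAP1* KO clones under the same comparison with LL2 WT, by a limma test of the difference itself. *Hsp90ab1*, the constitutive cytosolic HSP90, averaged 5161 CPM in clone #3 and 4132 CPM in clone #1, a log2 difference of 0.32 (adjusted p = 0.0382), with every sample of the former above the latter. The call ended without any 1 of 9 samples (0.29 to 0.36, adjusted p from 0.0554 to 0.133). *Hsp90b1*, the HSP90 of the ER, averaged 794 CPM in clone #3 and 617 CPM in clone #1, a log2 difference of 0.37 (adjusted p = 0.0499), also with no overlap, and the call ended without any 1 of 11 samples (0.32 to 0.38, adjusted p from 0.0518 to 0.157).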

How the results depend on the processing

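Over 25 alternatives, 1 of them the summed *Hspa1a* and *Hspa1b*, the 83 named log2 fold changes (61 past the threshold) gave 1993 values, of which 1745 kept direction and side of the threshold, 177 no longer passed, 69 passed anew and 2 reversed. The reversals were *Hspb1* without LL2 WT replicate 2, at −0.05 in *KEAP1* KO #2 and −0.17 in *KEAP1* KO #3 (ranges −0.05 to 1.06 and −0.17 to 0.95 with 1 sample left out). Neither scaling reversed any of the 83. Of the 45 calls against LL2 WT, 27 passed without any 1 sample and 18 were ended by at least 1. With 1 sample left out, the members that rose, fell and were past 2-fold numbered 6 to 13, 3 to 5 and 2 to 6 in *KEAP1* KO #1, 6 to 18, 3 to 6 and 5 to 10 in *KEAP1* KO #2, 7 to 16, 4 to 6 and 5 to 9 in *KEAP1* KO #3, and 0 to 0 throughout in *NRF2* KO. Those differing numbered 0 to 1 between *KEAP1* KO #2 and #1, 0 to 2 between #3 and #1, 0 to 0 between #3 and #2, and 9 to 17, or 21 without replicate 3 of every line, between the clones and *NRF2* KO.

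The counts that moved by more than 1.5 times are given by setting, and the cause was not tested. With no filter, 8 members rose and 3 fell in *KEAP1* KO #2 and 1 differed in each of #2 minus #1 and #3 minus #1. With a mean of at least 1 CPM, 1 differed in #2 minus #1. With a pseudocount of 0.5 or 1 CPM, 1 differed in #3 minus #1. With median-ratio scaling 7 rose in *KEAP1* KO #2. With quantile scaling 8 fell in *KEAP1* KO #2 and 1 differed in #3 minus #1. Fits with only the lines compared, which hold fewer samples, gave 4, 7 and 6 rising in the clones in order, 1 and 3 falling in #1 and #2, and 1 differing in #3 minus #1. Without replicate 3 of every line, 20 and 17 rose in #2 and #3, 7 and 8 fell in #1 and #2, and 10 and 9 differed in #2 minus #1 and #3 minus #1. The shares of all tested genes were not counted under any alternative or with samples left out.

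By the labels, samples with the same replicate number share only that number, and the main fit held no term for it. Their deviations from the line means correlated at a median r of 0.276 over 30 pairs (−0.022 to 0.631 across 11676 genes, 22 pairs over 0.1), against −0.192 for different numbers. By number, r ran from −0.022 to 0.278 for replicate 1, from 0.126 to 0.529 for replicate 2 and from 0.422 to 0.631 for replicate 3. With the replicate block, 18 rose in *KEAP1* KO #1 and 18 in #3, 7 and 8 fell in #1 and #2, 2 fell in *NRF2* KO, 7, 7 and 1 differed in #2 minus #1, #3 minus #1 and #3 minus #2, and 23 differed between the clones and *NRF2* KO. By role, 13, 13 and 12 cytosolic members rose in the clones and 1, 1 and 1 fell. Of the 15 cytosolic members tested, 0 rose and 2 fell in *NRF2* KO. Among the ER members, 2, 4 and 3 rose and 4, 5 and 3 fell in the clones. The shares of all tested genes with the replicate block were not counted, so these counts cannot be set against them. The depth of each sample is unknown, so the counting error of low genes such as *Cryab*, *Hspb1* and *Hspa1a* was not given.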
